A study of Mus musculus with 12 samples.

Results

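The complement and major histocompatibility complex (MHC) class I genes C4b, C3, Serping1, B2m, H2-D1, H2-K1, Tap1 and Tapbp were followed across postnatal development of the mouse cerebellum. They were chosen by gene symbol, and all 8 were found among the 24421 entries of the deposited expression table. RNA was sequenced from cells sorted by fluorescence from dissociated cerebellum of Aldh1l1-GFP mice at postnatal days P1, P7, P14 and P28, with 3 libraries at each age and 12 in all. All groups carried the same Aldh1l1-GFP reporter, in which the promoter of the astrocyte gene Aldh1l1 drives green fluorescent protein, and the labels set them apart by age alone. The methods describe mice of both sexes on the C57/BL6J background. Such a reporter marks any cell in which that promoter is active, and how many animals made up a library is not given in the sources used here.

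Complement is a cascade of plasma proteins in which C4 and C3 are cleaved in turn and tag surfaces for removal by phagocytes. In the developing brain, complement is known for the tagging of synapses, and the C1 inhibitor encoded by Serping1 restrains the first step. MHC class I molecules are heterodimers of a polymorphic heavy chain and beta-2-microglobulin that display peptides from inside the cell. Those peptides are pumped into the endoplasmic reticulum by the TAP transporter and loaded with the help of tapasin, and interferons are well-known inducers of the whole class I pathway.

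Values are given as normalized counts, which are reads per gene divided by 1 size factor per library. All 8 genes had normalized counts of 10 or more in 3 or more libraries, the filter on low values, and were among the 15464 genes tested in a limma fit on log2(normalized count + 1). The fold changes below are log2 differences on that scale, the later age minus the earlier one, and a gene was called at a Benjamini-Hochberg adjusted p under 0.05 over all genes tested. The comparisons share libraries, since each middle age closes one step and opens the next. The labels number the libraries of an age only as replicates, so the p-values measure the spread between these libraries, which may be technical. The libraries held between 6399499 and 14733985 reads on genes. Gene totals differed between same-age libraries beyond sampling noise in all 12 replicate pairs.

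The promoters of the class I genes that were called in any comparison are shown, B2m coding for the light chain, H2-D1 and H2-K1 for heavy chains and Tapbp for their loading factor. Sequences and transcription starts are from RefSeq on build GRCm38.p6, from 250 bases before to 50 bases after the start, and 6 of the 8 genes matched an entry, C4b and Serping1 being the exceptions. The windows lie at chr2:122147437-122147736 on the plus strand for B2m, chr17:35262844-35263143 on the plus strand for H2-D1, chr17:34000298-34000597 on the minus strand for H2-K1 and chr17:33919228-33919527 on the plus strand for Tapbp. Capitals mark matches on either strand to the interferon-stimulated response element core, the gamma-activated site core TTCNNNGAA, the box CCAAT, the cyclic AMP response element TGACGTCA, or the NF-kB site.
B2m: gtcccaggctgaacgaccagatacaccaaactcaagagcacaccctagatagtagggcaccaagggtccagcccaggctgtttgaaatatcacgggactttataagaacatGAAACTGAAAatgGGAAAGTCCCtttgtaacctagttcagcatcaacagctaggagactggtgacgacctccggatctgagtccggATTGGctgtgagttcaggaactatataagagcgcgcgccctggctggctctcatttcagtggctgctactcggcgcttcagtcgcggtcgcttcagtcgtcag
H2-D1: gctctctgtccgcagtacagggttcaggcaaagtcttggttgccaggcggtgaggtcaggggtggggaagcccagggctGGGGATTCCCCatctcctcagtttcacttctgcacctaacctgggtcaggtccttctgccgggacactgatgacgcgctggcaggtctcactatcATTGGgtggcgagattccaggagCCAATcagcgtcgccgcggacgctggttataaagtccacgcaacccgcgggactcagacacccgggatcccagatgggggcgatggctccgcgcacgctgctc
H2-K1: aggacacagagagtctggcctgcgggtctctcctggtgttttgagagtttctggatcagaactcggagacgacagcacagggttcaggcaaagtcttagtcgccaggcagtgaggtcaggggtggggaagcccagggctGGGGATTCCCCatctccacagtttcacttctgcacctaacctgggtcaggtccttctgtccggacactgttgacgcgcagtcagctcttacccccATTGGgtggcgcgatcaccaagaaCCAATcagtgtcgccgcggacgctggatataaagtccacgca
Tapbp: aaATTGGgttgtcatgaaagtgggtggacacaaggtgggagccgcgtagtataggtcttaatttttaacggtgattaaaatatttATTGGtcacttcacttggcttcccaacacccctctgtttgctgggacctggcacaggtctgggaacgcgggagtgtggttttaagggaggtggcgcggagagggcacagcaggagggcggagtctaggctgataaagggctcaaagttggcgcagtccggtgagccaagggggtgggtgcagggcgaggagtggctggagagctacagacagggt

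In B2m the interferon element core began at base -139 from the start, with an NF-kB match at -126 and a CCAAT box at -53. H2-D1 and H2-K1 each held a pair of overlapping NF-kB matches and 2 CCAAT boxes, and their windows shared an unbroken stretch of 47 identical bases that contains both NF-kB matches. A second, nearby RefSeq start of H2-K1 gave the same kinds of match. No window of H2-D1 or H2-K1 matched the interferon element core. The search took only exact matches to that core pattern, and variant forms of the element were not searched. The missing match therefore does not show that the H2-D1 and H2-K1 promoters lack such an element. Tapbp held 2 CCAAT boxes, Tap1 held 1, and C3 held none of the motifs searched. Over 32851 promoter windows of the same length, 3.44% held the interferon element core, 8.3% the gamma-activated core, 37.4% a CCAAT box, 1.79% the cyclic AMP element and 8.46% an NF-kB match. These matches describe letters in the windows and were not tied to binding or to expression.

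Per kilobase of transcript, B2m was by far the most abundant of the 8 at every age, at mean normalized counts of 1359, 1299, 2434 and 6052 per kb at P1, P7, P14 and P28. Serping1 came next, at 369, 487, 583 and 307 per kb. The other class I genes were lower: over all 12 libraries Tapbp averaged 114 per kb, H2-K1 102, H2-D1 58.8 and Tap1 26.3. Among the complement components C4b averaged 29.8 per kb and C3 only 3.47. H2-D1 and H2-K1 were below their common light chain at each age on this per-length scale.

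**Figure D1:**
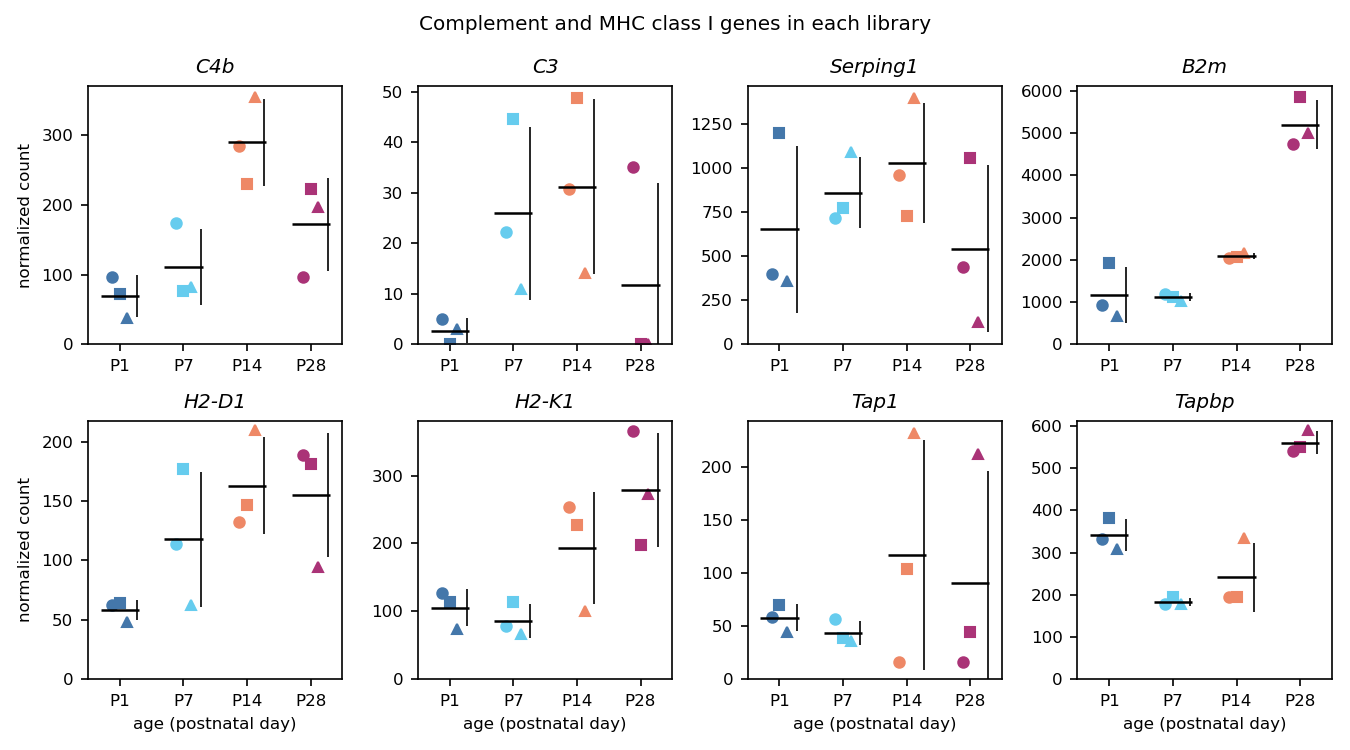
Normalized count (y axis, linear from 0, a separate scale for each gene) of the 8 genes at P1, P7, P14 and P28 (x axis). Points are single libraries, with 1 marker shape per replicate number, horizontal lines are means and vertical lines are 1 SD over 3 libraries. B2m stands between 4751 and 5851 in the P28 libraries and no higher than 2173 elsewhere, and Tapbp is lowest at P7.

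C4b, the component cleaved by C1 and by the lectin pathway proteases, peaked at P14. It measured 97.2, 72.2 and 37.9 in the P1 libraries and 174, 75.9 and 82.2 at P7. It measured 285, 229.6 and 355 at P14 and 96.5, 223 and 197 at P28. Each P14 library lay above each P7 and each P28 library, whereas P1 overlapped with P7, and P7 with P28. The means were 111 ± 54.7 at P7 and 289.9 ± 62.9 at P14 (SD, n = 3). The rise from P7 to P14 was 1.46 (SE 0.49, adjusted p = 0.0470). Its adjusted p was 0.0519 to 0.166 when any of 7 libraries was left out (P1 replicates 1 and 2, P7 replicates 2 and 3 and the P14 libraries, the highest without P7 replicate 2), which ended the call. The difference from P14 to P28 was -0.81 (adjusted p = 0.289) and that from P1 to P28 was 1.32 (adjusted p = 0.0502), neither called in the main limma fit. The P1 to P28 rise was called by edgeR, by DESeq2 and with TMM factors, and not with library totals (adjusted p = 0.151). C4b lies at chr17:34728380-34743882 on the minus strand in GENCODE M21 (GRCm38), and 23.5% of its 75-base transcript stretches occur also in its copy C4a. How the authors assigned reads that fit both is not stated, so C4b and C4a are uncertain where they are identical. C4a measured 65.3, 40.2, 76.7 and 50.6 on average at the 4 ages and was called in no step.

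P14, the age of the highest C4b, was also the age of the highest summed oligodendrocyte and neuron markers. The summed normalized count of 9 oligodendrocyte lineage markers, 8 of them detected in every library, ran from 341450.0 to 391986 at P14, against 23385 to 35221 in the P7 and 105014 to 145734 in the P28 libraries. Over the same ages, the 10 granule and other neuron markers summed to 6049.6 to 7953, 25965 to 51242 and 17284 to 21338, although single members differed, with 7 of the 10 called higher and Tubb3 called lower from P7 to P14. Of the 9 oligodendrocyte lineage markers, 7 were called higher and Pdgfra was called lower from P7 to P14. The part of either set in the C4b values was not tested. In such bulk samples, fewer cells of a type and less RNA per cell cannot be told apart.

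C3, the central component of the cascade, was close to the limit of detection, with 0 to 46 reads per library. Its normalized counts were 4.92, 0 and 3.03 at P1 and 22.3, 44.5 and 10.9 at P7. They were 30.7, 48.7 and 14.1 at P14 and 35.1, 0 and 0 at P28. Each P7 library lay above each P1 library, and the P28 value came from 1 library, both others having 0 reads. A library with 0 reads can hold up to 3 reads by counting error alone, which is a normalized count between 1.85 and 4.38 depending on the library. The difference from P1 to P7 was 3.01 (SE 1.27, adjusted p = 0.194) and that from P14 to P28 was -3.12 (adjusted p = 0.113). At this depth no change of C3 was called in the main limma fit. Under the alternatives with all libraries, the adjusted p from P1 to P7 was 0.0379 to 0.288. With libraries left out, that from P14 to P28 was 0.00641 to 0.267, so these calls depended on the processing. C3 is at chr17:57203970-57228136 on the minus strand and shares none of its 75-base stretches with another gene.

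Serping1, the C1 inhibitor, was abundant and varied widely between same-age libraries. The values were 396, 1199.6 and 359.7 at P1 and 717, 773 and 1091 at P7. They were 962, 731 and 1399.8 at P14 and 438, 1060.3 and 127 at P28. P1 replicate 2 stood above the other P1 libraries and P28 replicate 3 below the other P28 libraries, and all 4 ages overlapped. The P28 mean was 542 ± 475 (SD, n = 3). The change from P14 to P28 was -1.35 (SE 0.60, 95% interval -2.64 to -0.06, adjusted p = 0.148) and the other steps were smaller than their standard error or close to it. With libraries left out, the adjusted p of the P14 to P28 change was 0.0214 to 0.473, the highest without P28 replicate 3. P1 replicate 2 also had the highest P1 sums of pericyte and meningeal fibroblast, of endothelial and of microglia and macrophage markers. The 14 pericyte and meningeal fibroblast markers, 13 of them detected in every library, summed there to 74255, against 34974 in replicate 1 and 18362 in replicate 3. At P28 the library with the lowest Serping1, replicate 3, had the highest such sum, at 15057. Their part in the Serping1 values was not tested. Serping1 lies at chr2:84765387-84775444 on the minus strand.

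B2m, the light chain shared by all classical class I molecules, rose in both later steps and was the clearest change of the 8 genes. It measured 924, 1915 and 668 at P1 and 1199.9, 1126 and 1026 at P7. It measured 2035, 2072 and 2173 at P14 and 4751, 5851 and 5013 at P28. The P14 libraries lay within a narrow band above all P1 and P7 libraries, and the P28 libraries all lay above P14. The means were 1169 ± 659, 1117 ± 87.1, 2094 ± 71.2 and 5205 ± 575 (SD, n = 3). From P7 to P14 the rise was 0.91 (SE 0.28, adjusted p = 0.0301), a 1.87-fold ratio of means, and from P14 to P28 it was 1.31 (adjusted p = 0.00747), a 2.49-fold ratio. From P1 to P28 the rise was 2.29 (95% interval 1.70 to 2.88, adjusted p = 2.38e-05), a 4.45-fold ratio. These later calls held with each library left out, while the first was lost when any single P7 or P14 library was left out, at an adjusted p of 0.0629 to 0.101 (the highest without P7 replicate 3). B2m is at chr2:122147686-122153083 on the plus strand, and no 75-base stretch of it occurs in another gene.

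H2-D1, one of the classical heavy chains, was lowest at P1. It measured 62.1, 64.3 and 48.5 at P1 and 114, 177 and 62.8 at P7. It measured 132, 147 and 209.6 at P14 and 189, 182 and 94.7 at P28. Each P28 library lay above each P1 library, whereas P7, P14 and P28 overlapped. Over the whole period it rose by 1.34 (SE 0.47, adjusted p = 0.0407), a 2.66-fold ratio of means, with no step called on its own. The call was lost without any of 7 single libraries (the P1 libraries, P7 replicate 1, P14 replicate 2 and P28 replicates 1 and 2), at an adjusted p of up to 0.118 without P1 replicate 3. The 13 endothelial markers, all detected in every library, summed to 3128, 12331 and 2011 in the P7 libraries, in the order of H2-D1, and to 4466, 5784 and 6452 in the P28 libraries, in the opposite order, and the part of these cells was not tested. H2-D1 is at chr17:35262730-35267499 on the plus strand, and 7.10% of its 75-base stretches occur in other class I genes, chiefly H2-Q1.

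H2-K1, the other classical heavy chain, was lowest at P7 and highest at P28. It measured 127, 114 and 74.2 at P1 and 78.0, 114 and 65.9 at P7. It measured 253, 226 and 99.9 at P14 and 365, 197 and 273 at P28. All P28 libraries lay above all P1 and P7 libraries, and P14 replicate 3 stayed within the range of the younger ages. From P1 to P28 H2-K1 rose by 1.39 (SE 0.45, adjusted p = 0.0269), a 2.64-fold ratio, and the adjusted p was 0.106 without P1 replicate 3 and 0.0721 without P28 replicate 1. From P7 to P14 the difference was 1.09 (adjusted p = 0.104), which was not called in the main limma fit. Its adjusted p was 0.0282 to 0.208 under the alternatives with all libraries and 0.0317 to 0.298 with libraries left out. The gene is at chr17:33996017-34000347 on the minus strand and shares 1.55% of its 75-base stretches with H2-D1, H2-Q1 and H2-Q6.

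**Figure D2:**
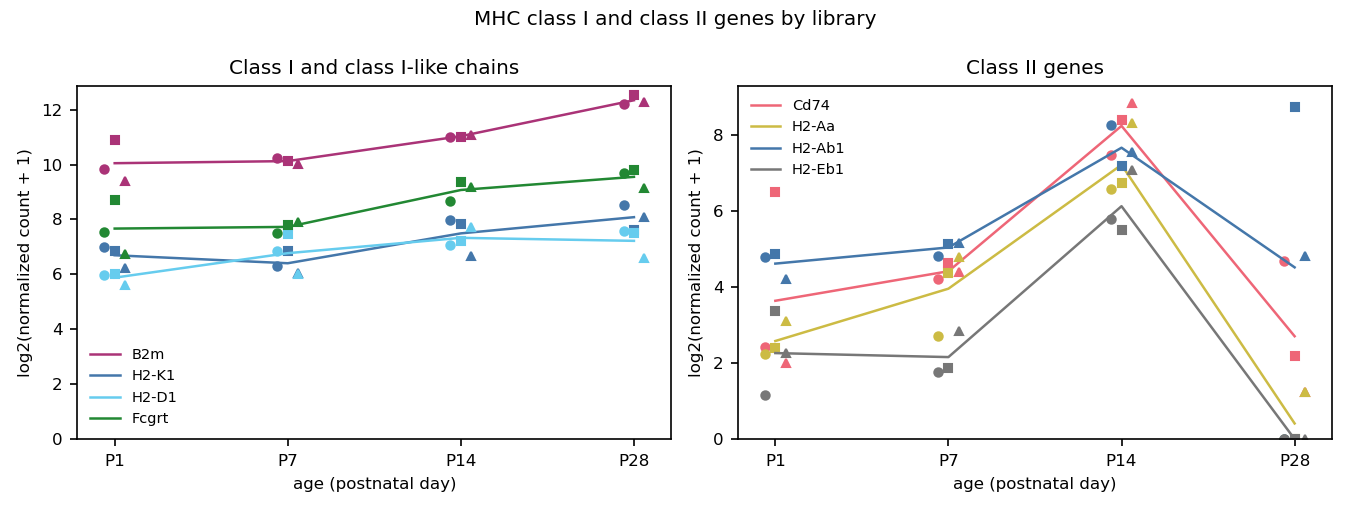
Log2(normalized count + 1) (y axis) by age (x axis) for class I and class I-like chains on the left and class II genes on the right. Points are libraries and lines join the means of 3 libraries per age. B2m climbs from P7 to P28, while Cd74, H2-Aa and H2-Eb1 are highest at P14 and fall by P28.

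Tap1, a subunit of the peptide transporter, showed a spread at the later ages that left no change measurable. It measured 59.1, 70.0 and 44.7 at P1 and 56.5, 39.3 and 35.7 at P7. It measured 15.9, 104 and 232 at P14 and 16.1, 44.8 and 212 at P28. At both later ages replicate 3 was the highest and replicate 1 the lowest library, so that all ages overlapped. The P1 to P28 difference was -0.07, with a 95% interval from -2.11 to 1.96, and its adjusted p over the 4 comparisons was between 0.648 and 0.961. In the P14 and P28 libraries, replicate 3 was also the one with the least choroid plexus RNA, the 7 markers summing to 110467, 64159 and 1326 at P14 and 105853, 184546 and 18124 at P28, and the part of this in Tap1 was not tested. Tap1 lies at chr17:34187553-34197225 on the plus strand, and its exons overlap by 212 bases with those of Psmb9 on the opposite strand. Whether the counting used strand, and to which gene reads in the overlap went, is not stated. Psmb9 itself reached no more than 7.41 in any library, and the part of overlap reads in Tap1 was not tested.

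Tapbp, which encodes tapasin, dipped at P7 and was highest at P28. It measured 333, 383 and 309 at P1 and 178, 194 and 178 at P7. It measured 194, 195 and 334 at P14 and 541, 549.6 and 591 at P28. The P28 libraries all lay above those of every other age, and the P7 libraries lay below every P1 and P14 library, although by little at P14 outside replicate 3. From P14 to P28 Tapbp rose by 1.26 (SE 0.27, adjusted p = 0.00778), a 2.33-fold ratio of means, and this held with each library left out. With only the P14 and P28 libraries in the fit, the adjusted p was 0.0626. The differences from P1 to P7, -0.89 (SE 0.27, adjusted p = 0.0604), and from P1 to P28, 0.72 (adjusted p = 0.0522), were not called in the main limma fit. The P1 to P28 rise was called by edgeR, by DESeq2 and with TMM factors, and not with library totals (adjusted p = 0.419). Tapbp is at chr17:33915899-33929292 on the plus strand, overlaps the antisense gene Gm19412 by 682 exonic bases and shares 17.5% of its 75-base stretches, most of them with Gm19412.

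Counted together, 0 of the 8 genes were called from P1 to P7, where 7.7% of all genes tested were called. This count is from limma, with 2 of 8 at an unadjusted p under 0.05 (19.3% of all genes), 0 called by edgeR and 1, Tapbp, by DESeq2. From P7 to P14, 2 of 8 were called, B2m and C4b, both higher, against 20.9% of all genes in either direction and 10.8% upward. From P14 to P28, 2 of 8 were called, B2m and Tapbp, both higher, against 14.4% and 5.68%. From P1 to P28, 3 of 8 were called, B2m, H2-D1 and H2-K1, all higher, against 34.6% and 14.6%. At an adjusted p under 0.05 limma called none of the 8 genes lower in any of the 4 comparisons. The study's own threshold is a p under 0.05 and a fold change above 0.75, without a statement on adjustment of p. Taken here as unadjusted p and a log2 change beyond 0.75, it was passed by 2, 3, 4 and 4 of the 8. The shares of all genes were 14.2%, 26.2%, 24.1% and 39.3%. The genes that passed in the lower direction there were Tapbp from P1 to P7 (-0.89) and C3 (-3.12) and Serping1 (-1.35) from P14 to P28.

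The median fold change of the 8 genes was 0.34, 0.66, -0.27 and 1.02 in the 4 comparisons, beside 0.04, -0.09, -0.12 and -0.24 over all genes tested. All 8 differences from P7 to P14 were positive, of which 2 were called. The libraries of both ages did not overlap for 2, 3, 3 and 4 of the 8 genes, beside 38.3%, 46.1%, 26.1% and 41.9% of all genes. Asked of all 4 ages at once with limma's F test, 4 of 8 genes varied, B2m (adjusted p = 3.62e-05), Tapbp (0.00118), C4b (0.0139) and H2-K1 (0.0230), where 43.8% of all genes did. C3 (0.0650), H2-D1 (0.0679), Serping1 (0.230) and Tap1 (0.911) did not pass.

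**Figure D3:**
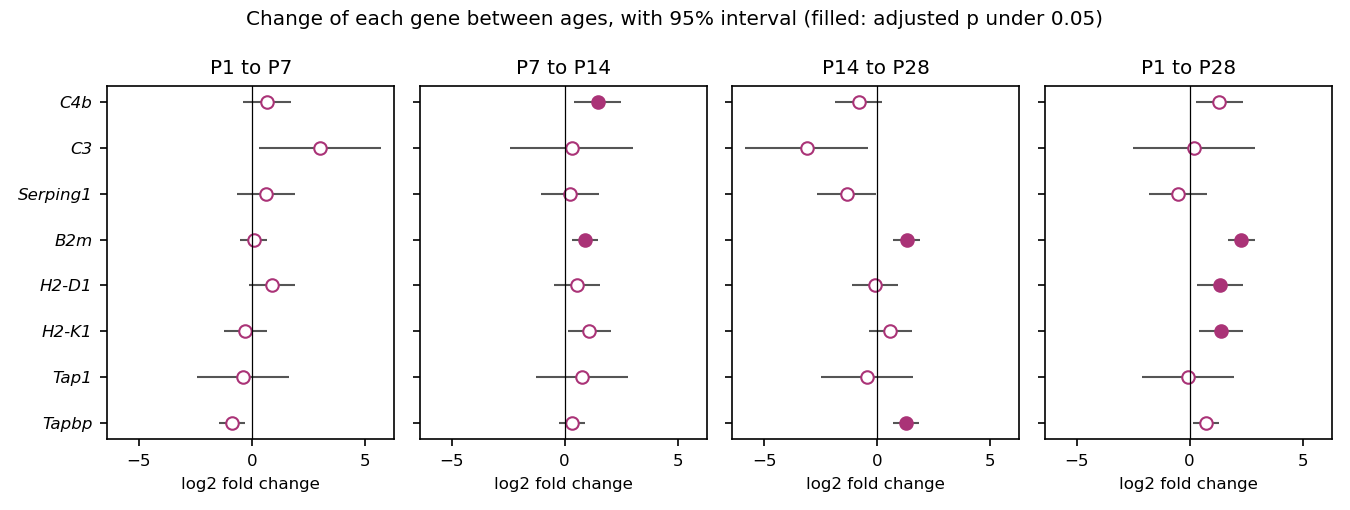
Log2 fold change (x axis, later minus earlier age) of each of the 8 genes (y axis) in the 4 comparisons, with 95% intervals from the limma fit as horizontal lines. Filled points have an adjusted p under 0.05. B2m is filled in the last 3 panels, and the intervals of C3 and Tap1 are the widest.

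The size factors set the scale of these changes. When the reads were scaled by library totals instead, the median change of all genes was -0.34 in place of -0.09 for P7 to P14, -0.35 in place of -0.12 for P14 to P28 and -0.66 in place of -0.24 for P1 to P28. Among called genes, the share that was higher was then 32.9% in place of 51.9%, 19.1% in place of 39.3% and 21.0% in place of 42.3%. On that scale the rise of B2m was 1.07 for P14 to P28 (adjusted p = 0.0158) and 1.86 for P1 to P28 (adjusted p = 0.000102), and that of Tapbp 1.03 for P14 to P28 (adjusted p = 0.0204). The P7 to P14 calls of B2m (adjusted p = 0.0950) and C4b (0.0843) and the P1 to P28 calls of H2-D1 (0.144) and H2-K1 (0.102) were lost, at positive differences.

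The sorted cells carried the astrocyte label. Of 11 astrocyte markers, all were detected in every library, and their normalized counts summed per library to 71900.3 to 89591 for P1, 33274 to 61122 for P7, 182880.0 to 226150.0 for P14 and 416703 to 486493 for P28. B2m, H2-K1 and Tapbp had their highest means at P28 like this sum. Their means were lowest at P7 like it, but the P1 and P7 libraries of B2m and H2-K1 overlapped. From P1 to P7 neither was called, at log2 differences of 0.08 for B2m (adjusted p = 0.947) and -0.29 for H2-K1 (0.840). The part of the astrocyte sum in these values was not tested. Aldh1l1, whose promoter drives the reporter, averaged 5008 ± 1320.0 at P1 and 2921 ± 446 at P28 (SD, n = 3). The summed astrocyte markers of each P7 library were lower than those of any P1 library, although single members differed. From P1 to P7, 7 of the 11 were called lower, and Gfap and S100b were called higher. From P1 to P28, Aldh1l1 was called lower and the other 10 higher.

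Markers of other cells were present too. The 16 microglia and macrophage markers, of which 11 were detected in every library, summed to 1324 to 3200.1, 2394 to 3382, 3233 to 5292 and 2126 to 2779.6 at the 4 ages, highest at P14, the age of the C4b peak, and not at P28, the age of the highest B2m. The 8 lymphocyte markers summed to no more than 53.0, and Cd3g and Klrb1c were at 0 in all libraries. The part of these cells in the values of the 8 genes was not tested.

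**Figure D4:**
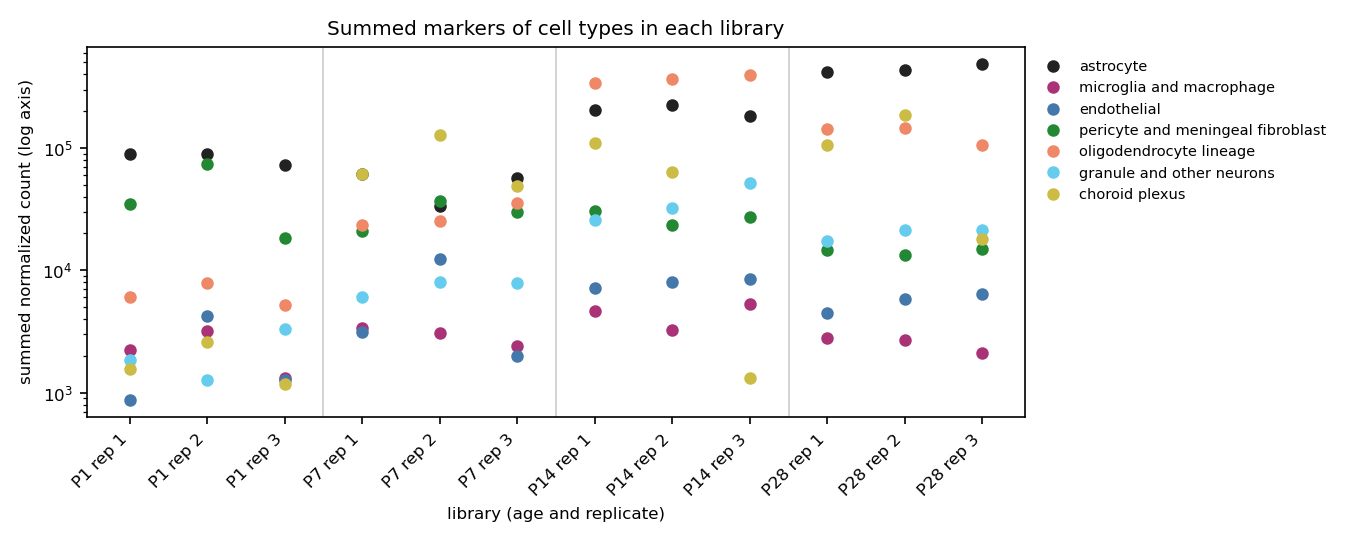
Summed normalized count of 7 cell type marker lists (y axis, log scale) in each of the 12 libraries (x axis, age and replicate). The astrocyte sum is highest in the P28 libraries, the oligodendrocyte lineage sum at P14, and choroid plexus markers fall to 1326 in P14 replicate 3.

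Among 18 complement activation genes tested, C4b was the only one called higher from P7 to P14, and Cfb, a protease of the alternative pathway, the only one called lower. In that step 20.9% of all genes were called in either direction and 10.8% upward. Cfb measured 82.8, 45.8 and 38.8 at P7, 24.4, 5.29 and 3.26 at P14 and 111, 83.7 and 22.99 at P28. It fell by 2.61 (adjusted p = 0.0299) and then rose by 2.80 (adjusted p = 0.0305), both calls being lost when single libraries at the compared ages were left out, at an adjusted p of up to 0.129 (without P7 replicate 1) and 0.111 (without P14 replicate 3). The fall was not called by edgeR (0.0616). Masp1, a lectin pathway protease that can act ahead of C4, went from 677 ± 89.7 at P1 to 34.8 ± 42.5 at P28 (SD, n = 3). Its fall over the whole period was called (log2 -5.38, adjusted p = 0.000677). C1qb, a chain of C1q, ranged between 55.3 and 267 over all libraries and was called in no comparison, nor was Colec12, a scavenger receptor and the most abundant gene of the list. The median of the list was -0.19, -0.18, -0.62 and -0.42 in the 4 comparisons. From P1 to P7 limma called 0 of 18, beside 7.7% of all genes, with 1 at an unadjusted p under 0.05 and 0 by edgeR and DESeq2.

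Among 18 complement inhibitors tested, 10 were called from P1 to P28, 4 higher and 6 lower, against 34.6% of all genes in either direction and 14.6% upward. Clu, clusterin, a secreted chaperone that also blocks the membrane attack complex, measured 2250.5, 3817 and 1438 at P1 and 1120.3, 893 and 878 at P7. It measured 4856, 4852 and 3319.8 at P14 and 12838, 10754 and 12067 at P28, so that the ages from P7 to P28 did not overlap. Clu fell by 1.27 to P7 (adjusted p = 0.00984), rose by 2.16 to P14 (adjusted p = 6.25e-05) and rose by 1.47 to P28 (adjusted p = 0.00378). The first of these calls was lost without P1 replicate 2 and P7 replicate 2 together (-0.86, adjusted p = 0.102). Like B2m it was highest at P28.

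Csmd1, a membrane protein with complement control domains, fell by 1.64 from P1 to P7 (adjusted p = 0.00232), from a mean of 1502 to 478, a call lost without that pair of libraries (adjusted p = 0.0608). Sez6l, of a related family, fell by 1.59 from P14 to P28 (adjusted p = 0.000320), from 1157 to 384, while its relative Sez6l2 rose by 2.51 from P1 to P28 (adjusted p = 0.000309). Vtn, vitronectin, fell by 1.19 from P14 to P28 (adjusted p = 0.0469), a call lost without P14 replicate 1 (adjusted p = 0.159) and others. Sez6 fell by 2.97 over the same step (adjusted p = 0.0474), lost without P14 replicate 2 (0.121) and others and not called by edgeR (0.102). The median of the inhibitors was -0.32, 0.60, -0.37 and -0.70, with called genes in both directions in each comparison.

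Of 8 complement receptors tested, Lrp1, an endocytic receptor that takes up many ligands, fell by 1.12 to P7 (adjusted p = 0.00576) and rose by 1.37 to P14 (adjusted p = 0.000511), the first call being lost without P1 replicate 2 and P7 replicate 2 together (0.0574). Its means were 6273 ± 2189, 2784 ± 366, 7144 ± 231 and 9858 ± 2237 (SD, n = 3). C3ar1, the receptor of the C3a fragment, averaged 44.1 at P1 and 152 at P7 and rose by 1.78 (adjusted p = 0.0281), which was lost with each single P1 or P7 library left out, at up to 0.119 without P7 replicate 3. Cd209a, a lectin receptor, rose by 5.22 from P7 to P14 (adjusted p = 0.00862), from 0, 0 and 1.55 to 26.5, 32.8 and 141. Each P7 value of Cd209a was below 3 reads, so the size of this rise depends on the pseudocount. From P14 to P28 limma called 0 of 8 receptors, beside 14.4% of all genes, with 3 at an unadjusted p under 0.05, 0 by edgeR and 1 by DESeq2. Calr, calreticulin, and Cd93 were called in no comparison. The list's median was 0.94, 0.36, -1.24 and 0.08.

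Of 28 MHC class I and class I-like chains on the list, 13 were tested, and 9 were listed with 0 reads in every library, among them H2-L and H2-Q6 to H2-Q9. How reads that fit several genes were counted is not stated, so these zeros do not show that the RNA was absent. The 6 hemoglobin genes among the red blood cell markers were also at 0 in every library. H2-Q4, a non-classical chain, averaged 60.1, 52.1, 33.4 and 48.1, and H2-K2, a near copy of H2-K1, did not exceed 13.5 and was not tested. From P1 to P28, 6 of the 13 rose and 2 fell, against 34.6% of all genes called and 14.6% upward. One of these calls, the rise of H2-T24 (adjusted p = 0.0395), was lost without any of 8 single libraries, at up to 0.188 without P1 replicate 1. The list's median was 0.08, 0.58, 0.06 and 1.14 in the 4 comparisons. From P1 to P7 limma called 0 of 13, beside 7.7% of all genes, with 0 at an unadjusted p under 0.05 and 0 by edgeR and DESeq2.

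Fcgrt, the heavy chain of the neonatal Fc receptor, also pairs with beta-2-microglobulin. It measured 181, 219.9 and 236 at P7, 407, 655 and 582 at P14 and 819.8, 898 and 571 at P28, and rose by 1.34 from P7 to P14 (adjusted p = 0.0284) and by 1.88 from P1 to P28 (adjusted p = 0.00250). The first of these was lost without P14 replicate 2 (adjusted p = 0.108) and others, and the second held with each library left out. Mr1, which presents vitamin metabolites, rose by 1.14 from P1 to P28 (adjusted p = 0.0374), lost without P1 replicate 1 (0.156) and others. Cd1d1, which presents lipids, went the other way: it measured 90.0, 18.0 and 7.6 at P14 and 2.92, 0 and 0 at P28, a fall of 3.96 (adjusted p = 0.0124) that was lost without P14 replicate 1 (0.0545). Each P28 value of Cd1d1 was below 3 reads, so the size of this fall depends on the pseudocount.

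Of 18 peptide loading genes tested, Tapbp, Canx, Psme1 and Psme2 rose from P14 to P28, and Psmb8 and Nlrc5 fell, against 14.4% of all genes called and 5.68% upward. The calls of Psme1 and Nlrc5 were lost without single libraries, at an adjusted p of up to 0.0984 (without P28 replicate 2) and 0.125 (without P14 replicate 2). Psme2, a subunit of the proteasome activator PA28, measured 164, 238 and 345 at P14 and 642, 407 and 910.1 at P28 and rose by 1.38 (adjusted p = 0.0197), lost without P14 replicate 1 (0.0825) and others. Canx, calnexin, which folds new heavy chains, rose by 0.58 (adjusted p = 0.0411), lost without P14 replicate 3 (0.133) and others. Psmb8, an immunoproteasome subunit, fell by 4.48 (adjusted p = 0.0365), from 18.0, 81.5 and 90.1 to 0, 11.8 and 0, lost without P14 replicate 3 (0.119) and others and not called by edgeR (0.115).

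Hspa5 and Pdia3, abundant chaperones of the endoplasmic reticulum, were called in no comparison. Tap2, the partner of Tap1, and Tapbpl, a relative of tapasin, averaged 56.3 and 38.7 at P28 and were not called either. From P7 to P14 limma called 0 of the 18, beside 20.9% of all genes, with 2 at an unadjusted p under 0.05, 0 by edgeR and 1 by DESeq2. From P1 to P7 it likewise called 0, beside 7.7% of all genes, with 2, 0 and 1. The list's median was -0.11, 0.18, 0.21 and 0.20, and the last pair was the same with Nlrc5 at its bound.

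The regulators Nlrc5 and Irf1 were called lower from P1 to P28 and are named here because they fell, a choice made after their values were seen. Nlrc5, the class I transactivator, measured 14.8, 12.9 and 20.4 at P1 and had 0 reads in all P28 libraries, a mean at least 4.01-fold lower at a floor of 3 reads per library (adjusted p = 0.00232). Irf1, an interferon-induced factor, measured 226, 219 and 126 at P1 and 21.9, 24.8 and 9.47 at P28 and fell by 3.33 (adjusted p = 0.000827). Both falls held with each library left out. Irf2, of the same family as Irf1, was called higher over the same period (1.03, adjusted p = 0.0195), which was lost without P1 replicate 1 (0.0986) or P28 replicate 2 (0.0744).

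Of 6 class II genes tested, which serve presentation by specialised immune cells, Cd74, H2-Aa and H2-Eb1 rose from P7 to P14 and fell from P14 to P28, against 20.9% and 14.4% of all genes called in these steps. H2-Aa measured 5.57, 19.6 and 26.4 at P7, 94.3, 106 and 316 at P14 and 0, 0 and 1.35 at P28, a rise of 3.25 (adjusted p = 0.0117), lost without P7 replicate 1 (0.0744) and P14 replicate 3 (0.0515), and then fell by 6.80 (adjusted p = 0.000319). Its P28 values were each below the floor of 3 reads per library, so the size of this fall depends on the pseudocount. Cd74, the invariant chain, measured 177, 332 and 456 at P14 and 24.8, 3.54 and 1.35 at P28 and fell by 5.53 (adjusted p = 0.00597), while its rise from P7 to P14 was lost without P14 replicate 3 (0.0868) and others. H2-Eb1 had 54.0, 44.4 and 134 at P14 and 0 reads at P28, at least 19.4-fold lower by the same floor.

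H2-Ab1 did not pass in any comparison and had a single high library at P28, at 423. The median of the class II list was 0.33, 2.94, -4.34 and -1.55, or -3.71 and -0.92 in the last pair with H2-Eb1 at its bound. From P1 to P7 limma called 0 of 6, beside 7.7% of all genes, with 0 at an unadjusted p under 0.05 and 0 by edgeR and DESeq2. The summed microglia and macrophage markers, given above, were highest at P14 too, and their part in the class II values was not tested.

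**Figure D5:**
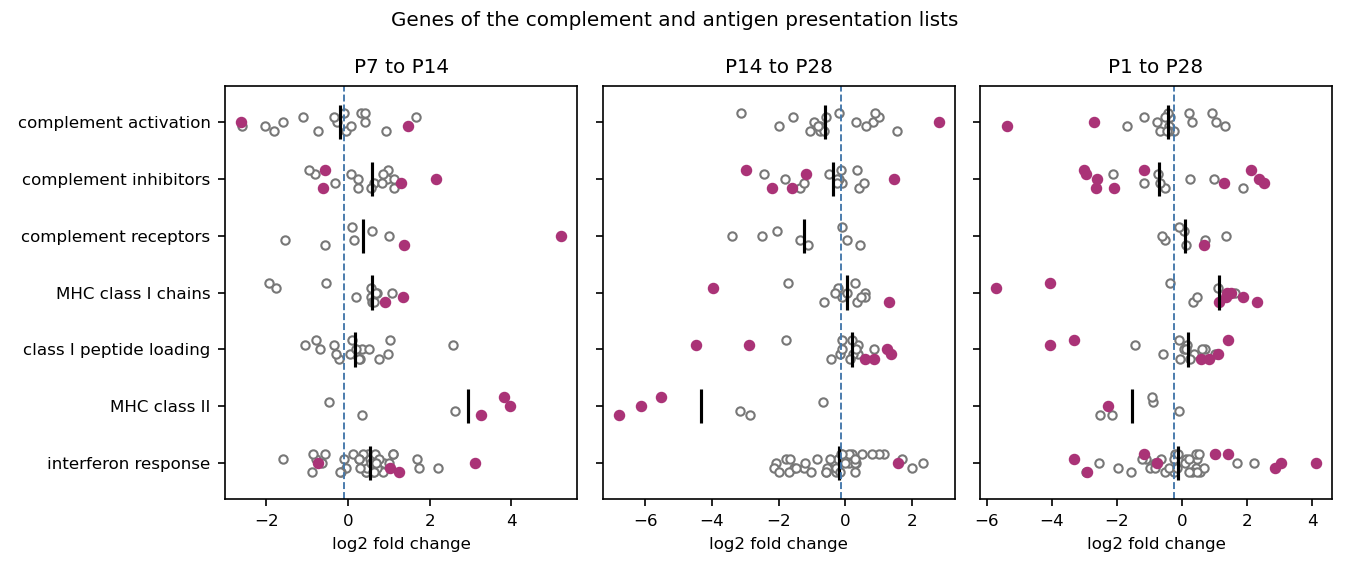
Log2 fold change (x axis) of every tested gene of 7 pathway lists (y axis) in 3 comparisons. Filled points have an adjusted p under 0.05, black bars are list medians and the dashed line is the median of all genes tested. The class II genes Cd74, H2-Aa and H2-Eb1 are filled to the right from P7 to P14 and to the left from P14 to P28.

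Among all genes tested, those most like each of the 8 were ranked by Pearson's r of log2(normalized count + 1) over the 12 libraries, which share age and depth, and are given as a description. Acot13 (r = 0.972), Tubb4b and Sned1 were most like B2m, and Tusc3 (r = 0.957), Nadk2 and Amot most like Tapbp. Ctsf (r = 0.951), Pgp and Fah were most like H2-K1, and Slc7a8 (r = 0.927), Slfn5 and Afap1l1 most like H2-D1. For Tap1 they were Adrbk1 (r = 0.879), Igbp1 and Fkbp8.

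For C4b the most similar genes were Sycp1 (r = 0.917), Lynx1 and St8sia5, for Serping1 Rab27a (r = 0.930), Tmem108 and Pfdn1, and for C3, at its few reads, 9530059O14Rik (r = 0.939), Gm5087 and Rgs1. Among the 8 themselves, B2m was most like H2-K1 (r = 0.790) and Tapbp (r = 0.693), while H2-D1 was most like C4b (r = 0.653). C3 and Tapbp ran in opposite directions (r = -0.666).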

How the data were processed

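RNA of GFP-sorted cerebellar cells was sequenced in 3 libraries per age. The authors aligned reads to mm10, counted them per gene and normalized with DESeq2. The submitters' processing notes name FastQC 0.11.7, MultiQC 1.11, STAR 2.5.0a and DESeq2 1.30.1. Per the deposited table, values are a signal, namely normalized counts (each library's reads per gene over 1 size factor). Dividing by the smallest value of a library recovered whole reads, within 0.01 reads, for 100% of values. Columns were matched to libraries through the labels, with 0 left over. Each column name has P28 in it, so the ages rest on the labels.

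limma 3.58.1 (R 4.3.3) was fitted to log2(value + 1), a pseudocount of 1, over all 12 libraries, with a mean per age and a variance trend, for the 15464 genes reaching 10 in 3 or more libraries, with calls at a Benjamini-Hochberg adjusted p under 0.05. edgeR 4.0.16 (quasi-likelihood, TMM) on the recovered reads of 15575 genes called 1093, 3055, 1982 and 4962 genes in P1 to P7, P7 to P14, P14 to P28 and P1 to P28, where limma called 1191, 3227, 2232 and 5350. Scripts were tested on simulated data. The other alternatives were DESeq2 1.42.0, scaling by library totals or TMM, pseudocounts of 0.5 and 10, no filter and at least 10 in every library. Further ones were only the ages compared, the replicate number as a block and each library left out. Another was the study's threshold, read here as p under 0.05 before adjustment and a log2 fold change beyond 0.75. Leaving out P1 replicate 2 and P7 replicate 2 together was chosen after seeing their marker levels.

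Genes named are the 8 genes, the 3 most abundant tested genes of each list and its largest called rise and fall per consecutive step, the 3 genes most like each of the 8, and near copies. All interferon-responsive genes called from P1 to P28 are named too. The genes and lists were chosen with earlier results of these data known. Annotation was GENCODE M21 (GRCm38, the build of mm10), where sharing was counted as 75-base stretches of the longest transcript found in transcripts of other genes. The counting of shared or antisense reads is not stated. Precision rests on the reads per library, 6399499 to 14733985, and intervals for 0 reads cover counting error only.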

Additional observations from a re-analysis of the deposited data

How the results depend on the processing

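From P1 to P7, 0 of the 8 genes were called, against 1 with DESeq2, 2 with only the ages compared and 2 at the study's threshold, and 0 to 1 with a library left out. From P7 to P14, 2 were called, against 1 with edgeR, 0 with library totals, 1 without a filter, 1 without P1 replicate 2 and P7 replicate 2, and 0 to 2 with a library left out (0 without P7 replicate 2, P7 replicate 3, P14 replicate 1 or P14 replicate 2). From P14 to P28, 2 were called, against 1 with only the ages compared, 4 at the study's threshold and 2 to 3 with a library left out. From P1 to P28, 3 were called, against 5 with edgeR, DESeq2 or TMM factors, which added C4b and Tapbp. The count was 1 with library totals or only the ages compared and 1 without P1 replicate 2 and P7 replicate 2. It was 1 to 4 with a library left out (1 without P1 replicate 3). The count of 4 genes varying over all ages stayed within 1.5 times under each alternative run.

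Replicate numbers did not pair the libraries: over 18 pairs of same-numbered libraries the deviations from the group means correlated at -0.03 to 0.14, with 1 pair over 0.1. With the replicate block, the P7 to P14 count was 1, C4b being lost, and no other count of the 8 genes moved by over 1.5 times.

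Of the fold changes of single genes under alternatives, 677 kept direction and side of the threshold, 25 passed it newly, 35 no longer passed and 27 changed sign, all of the last in differences not called. B2m from P1 to P7 was -0.0503 with edgeR and -0.065 with DESeq2, and -0.25 to 0.50 with a library left out. Serping1 from P7 to P14 was -0.023 with library totals, and -0.013 to 0.46 with a library left out. C3 from P1 to P28 was -0.035 at a pseudocount of 0.5, -0.56 without P1 replicate 2 and P7 replicate 2, and -1.53 to 1.06 with a library left out. Serping1 from P1 to P28 was 0.05 without that pair, and -1.23 to 0.30 with a library left out. Tap1 from P1 to P28 was 0.68 with edgeR, 0.65 with DESeq2, 0.024 at a pseudocount of 10 and 0.07 without that pair, and -1.05 to 0.77 with a library left out. With a library left out, C3 from P7 to P14 was -0.18 to 0.79, Tap1 -0.064 to 1.83 from P7 to P14 and -1.51 to 0.41 from P14 to P28, and H2-D1 -0.28 to 0.21 from P14 to P28. For the counts of list genes called higher or lower, 1099 alternatives stayed close to the value given and 245 moved. List medians were not computed under the alternatives. No called change of a list gene changed sign. Over all genes, DESeq2 called 1812 from P1 to P7 against limma's 1191. The cause of these shifts was not tested. C3 is limited by its depth of at most 46 reads per library.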

Other observations

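Of 41 interferon-responsive genes tested, which share inducers with the class I pathway, limma called 0 from P1 to P7, beside 7.7% of all genes. In that step 3 had an unadjusted p under 0.05, with 0 called by edgeR and 1 by DESeq2. From P1 to P28 limma called 5 upward and 4 downward, a smaller share than the 34.6% of all genes called. Those upward were Ifi27, Ifih1, Ifit3, Ifit3b and Irf2, and those downward Ifit2, Irf1, Jak2 and Stat3. Ifit2, named alike with Ifit3b, fell by 2.93 (adjusted p = 0.0198), lost without P1 replicate 2 (0.0765). Ifi27 measured 70.1, 139 and 31.0 at P1 and 672, 509.5 and 518 at P28 and rose by 3.04 (adjusted p = 0.000257). Ifit3b measured 10.5, 14.3 and 3.79 at P1 and 77.5, 370.4 and 149 at P28 and rose by 4.12 (adjusted p = 0.00283). Stat3, a cytokine-activated factor, fell by 0.73 from P7 to P14 (adjusted p = 0.0355), lost without P7 replicate 1 (0.133) and others, while Jak1 and the receptor chain Ifnar1 were called in no comparison. The list's median was -0.35, 0.53, -0.20 and -0.12 in the 4 comparisons. The Ifi27 and Ifit3b rises from P1 to P28 held with each library left out. Their called single steps did not: the rise of Ifi27 from P14 to P28 (1.58, adjusted p = 0.0411) was lost without any of 9 single libraries, at up to 0.117 without P14 replicate 3, and that of Ifit3b from P7 to P14 (3.10, adjusted p = 0.0235) without any of 4, at up to 0.110 without P7 replicate 1.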
